A study of Mus musculus with 15 samples.

Results

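The genes examined here encode the proteins of the cytosolic ribosome, the particle of 2 subunits that makes nearly all protein in the cell. They were taken as every probe whose gene name in the scanner files is Rpl or Rps followed by a number, with or without a closing a or x, or is Rplp0, Rplp1 or Rplp2, with Rpl11 left out. This gave 74 genes of 27962 gene names on the array, read by 124 of 41174 probes and 133 of 43379 spots. Of these, 44 genes (70 probes) belong to the large subunit and 30 genes (54 probes) to the small subunit. All 74 genes kept at least 1 tested probe, and 120 of the 124 probes were tested. The 4 probes below the limit were Rpl35a A_52_P369054, Rps18 A_51_P274544, Rps19 A_52_P129131 and Rps2 A_52_P182478.

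Ribosomal protein mRNAs are among the most abundant in any growing cell, and their products are made in matched amounts, since a protein that finds no place in a ribosome is usually degraded. Most of these mRNAs begin with a C and a run of pyrimidines, the 5′ terminal oligopyrimidine (TOP) tract, through which mTOR signalling adjusts their translation when serum or nutrients are withdrawn. That control acts mainly on translation, which an array of RNA levels does not read. Fibroblasts kept without serum leave the cell cycle, and the inhibitor of cyclin-dependent kinases p27, made from Cdkn1b, and the microtubule-destabilising protein stathmin, made from Stmn1, are known for roles in that setting.

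RNA came from mouse embryonic fibroblasts of 4 genotypes on a C57B6 background, all from embryos at 13.5 days, at passage 3, at high confluence and after 24 h without serum. Wild type, p27 knock-out and stathmin knock-out were read on 4 arrays each, and the double knock-out, which lacks both genes, on 3; no treatment differed between them. The submitters describe the replicates as biological, without saying whether the cells of an array came from 1 embryo or several. Each array held a sample in Cy5 and a pool of fibroblast RNA, the common reference, in Cy3, with no dye swap, so a ratio below is the log2 of sample over reference. The arrays lay on 4 slides with each genotype always at the same position, so genotype cannot be told apart from position on the slide; 3 of the 4 slides held a double knock-out array.

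Between 59.3 and 78.9% of an array's spots had a sample signal well above background; precision is limited by how few arrays there were. The Stmn1 probe A_52_P319161 ranged from -2.98 to -2.64 in stathmin knock-out and from -2.82 to -2.68 in double knock-out, against 0.64 to 0.87 in wild type. The tested Cdkn1b probe A_51_P146126 ranged from -0.22 to 0.93 in wild type, from -1.10 to 0.05 in p27 knock-out and from -1.36 to 0.19 in double knock-out, so these groups overlapped; whether it lies in the deleted part is not given in the sources used here. All 15 fibroblast marker genes were above background on every array. Of 9 epithelial marker probes, 0 lay above 0 in p27 knock-out (median difference from wild type -0.98), 1 in stathmin knock-out (-0.72) and 0 in double knock-out (-0.67), and none passed. The summed raw signal of 13 macrophage and blood marker genes ran from 51540 to 1237000 in p27 knock-out and from 62360 to 976500 in double knock-out, against 51830 to 303100 in wild type; in stathmin knock-out it ran from 117800 to 212200. In these bulk samples, fewer cells of a type and less RNA per cell cannot be told apart. The part of other cell types in the results below was not tested.

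The start sites of the members that are described most closely were examined for a TOP tract, a feature that the choice of genes did not use. The windows run from 15 bases before to 14 after the annotated start base, which is base 16 of the 30 printed, and come from RefSeq on GRCm38.p6; capitals mark a C followed by at least 4 pyrimidines that begins near the start or spans it. Rps24 lies at chr14:24490663-24490692 on the plus strand, Rpl14 at chr9:120571502-120571531 (plus), Rpl7a at chr2:26910792-26910821 (plus) and Rpl15 at chr14:18270972-18271001 (minus). Rps6 lies at chr4:86857353-86857382 (minus), Rps7 at chr12:28635939-28635968 (minus) and Rpl26 at chr11:68901551-68901580 (plus).
Rps24: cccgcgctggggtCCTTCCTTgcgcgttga
Rpl14: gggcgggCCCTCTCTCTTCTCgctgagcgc
Rpl7a: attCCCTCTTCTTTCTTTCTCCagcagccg
Rpl15: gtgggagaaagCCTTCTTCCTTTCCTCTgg
Rps6: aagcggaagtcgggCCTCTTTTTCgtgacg
Rps7: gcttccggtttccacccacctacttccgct
Rpl26: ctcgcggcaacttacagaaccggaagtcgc
Of these, 5 carry a capitalised tract and the windows of Rps7 and Rpl26 carry none near the listed base. The windows not shown include another annotated start of Rps24 and 2 of Rpl22, all without such a tract, and 3 of Rpl35a, of which 1 carries it.

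Start sites were found for 54 of the 74 genes. A C exactly at an annotated start and followed by 4 pyrimidines was present in 13 of the 54 genes (24.1%), against 3.01% of 27025 mouse genes. A C followed by 4 pyrimidines, with the C within 5 bases of the start, was present in 26 (48.1%), against 21.2%. That C may lie inside a longer run that begins further away, as in Rpl7a. In the 300-base windows from 250 bases before the start, CTCTTT on the gene strand was present in 40.7% of the genes against 13.7% of all genes. CTTTCC on the gene strand was present in 38.9% against 16%; both can overlap the tract itself. CCGGAAG, the core bound by ETS factors, was found on either strand in 38.9% against 9.93%, and TATAAA on either strand in 11.1% against 15.7%. These are matches of letters in the windows and not measured sites.

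The members were bright. The median member probe was brighter than 99.5% of all tested probes by mean log2 signal over both channels. The median raw sample signal of the tested members was 347306 to 520266 intensity units per array, and that of the reference 91757 to 150111 units. The sample channel reached its ceiling, at 627165 to 654653 units, on 11 to 47 of the 133 member spots of an array (8.27 to 35.3%), against 0.0945 to 0.265% of all spots, and members made up 18.2 to 40.9% of all saturated spots. No member was saturated in the reference channel on any array.

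Saturation varied between arrays of the same genotype. The saturated member spots numbered 17, 19, 11 and 39 on the wild type arrays and 22, 17, 15 and 47 on the p27 knock-out arrays. They numbered 30, 24, 19 and 16 on the stathmin knock-out arrays and 26, 21 and 31 on the double knock-out arrays. The 2 highest counts were both on slide 4, on wild type 4 and p27 knock-out 4, and the groups overlapped. For most member spots, 85.7 to 87.2% per array, the scanner software had used a second scan at low gain, against 8.65 to 13.9% of all spots.

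**Figure D1:**
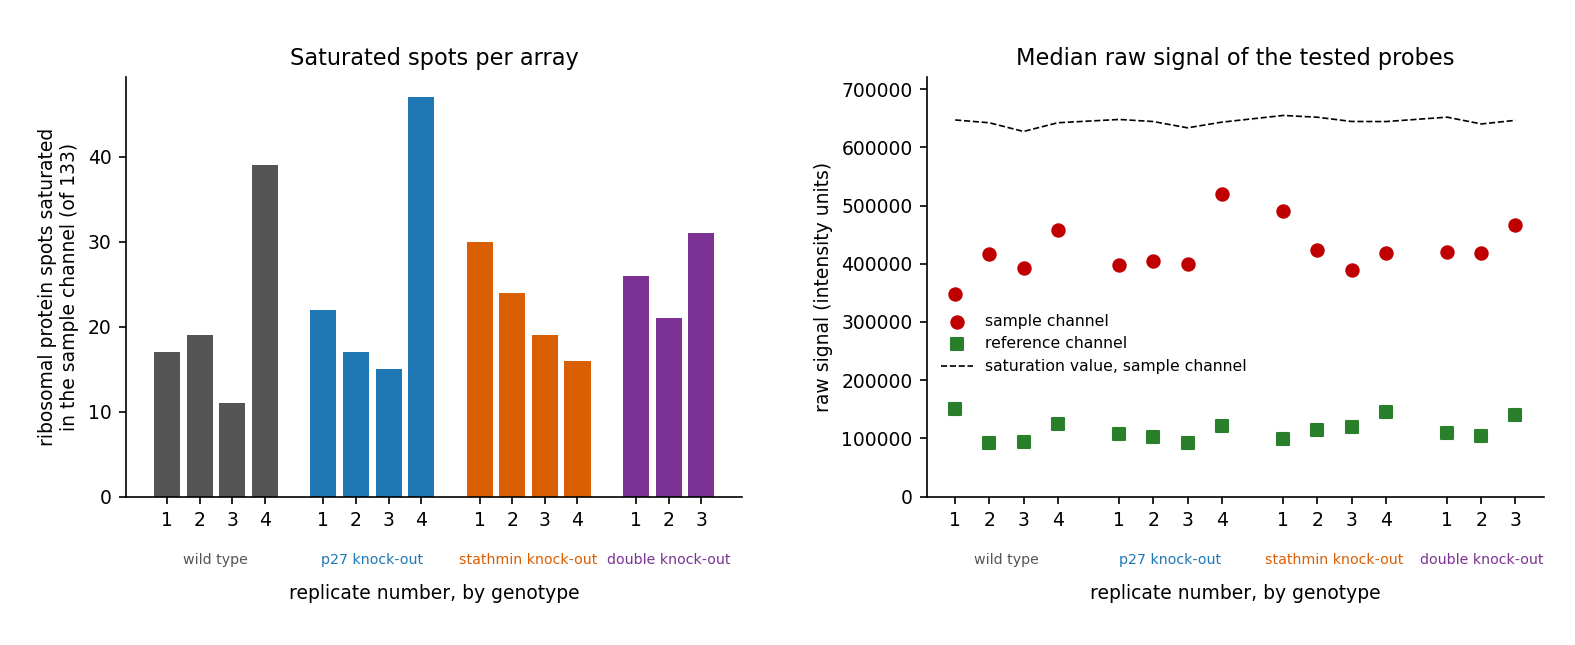
Left, member spots saturated in the sample channel on each array, of 133; right, the median raw signal of the tested member probes in each channel and the saturation value of the sample channel, by genotype and replicate number. The sample medians lie between 347306 and 520266 units, below the ceiling, and the reference medians between 91757 and 150111 units.

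By probe, 72 of the 120 tested members were saturated on no array and 48 on at least 1. Those saturated on all 15 arrays were Rpl5, Rplp1, Rplp2, Rps16 and Rps23, and no fold between genotypes can be given for them. A further 14 probes were saturated on every array of some genotypes but not of all, and no fold is given for these in a comparison that involves such a genotype. The mean over arrays of the median ratio of members saturated at least once was 0.95 to 1.12 in the 4 genotypes, against 0.16 to 0.19 for those never saturated.

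The level of the members against the reference overlapped between the genotypes. The median ratio over the tested member probes was 0.48, 0.61, 0.66 and 0.38 on the wild type arrays (mean 0.53 ± 0.13 SD, n = 4) and 0.76, 0.65, 0.56 and 0.69 on the p27 knock-out arrays (0.66 ± 0.08, n = 4). It was 0.90, 0.50, 0.43 and 0.21 on the stathmin knock-out arrays (0.51 ± 0.29, n = 4) and 0.57, 0.71 and 0.53 on the double knock-out arrays (0.60 ± 0.09, n = 3). The stathmin knock-out arrays held both the highest and the lowest value of the 15, and every pair of genotypes overlapped. All 15 medians stood above 0; with no dye swap, a higher level in the samples and an effect of the dye cannot be told apart. The median ratio over all probes lay between -0.02 and -0.0023 on every array.

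The other probes at least as bright as the lower quartile of the members, 317 in number, were also above 0 on all 15 arrays, with medians from 0.29 to 0.62. The member median stood above theirs on 13 of the 15 arrays and below it on the other two, with differences of -0.0066 on wild type 2 and -0.08 on stathmin knock-out 4. The pooled SD of the array medians within genotypes was 0.17 for the ratio, 0.0732 for the sample channel and 0.117 for the reference channel. Both channels were computed from the same ratio and mean signal, after normalisation of the mean signal between arrays. They are therefore not independent, and the spread of the ratio cannot be assigned to either channel.

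**Figure D2:**
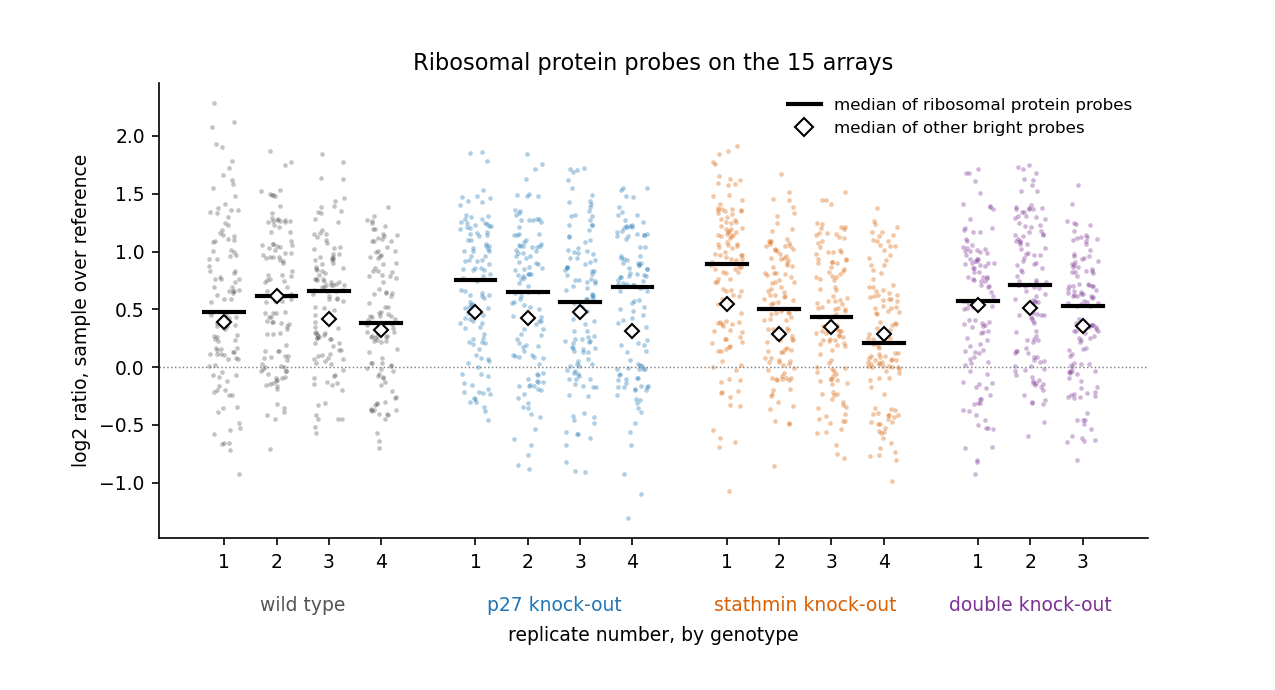
The log2 ratio of each tested member probe (points) on each of the 15 arrays, by genotype and replicate number, with the median of the members (bar) and of the 317 other bright probes (diamond). The member medians run from 0.21 to 0.90, both on stathmin knock-out arrays, and overlap between all genotypes.

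Single arrays had characteristic tails. Stathmin knock-out 4 gave the lowest ratio of the 15 arrays for 44 of 120 member probes, and stathmin knock-out 1 the highest for 36; these 2 arrays set the width of that group. Wild type 1 was highest for 15 and lowest for 22 probes. On wild type 1 there were 6 member probes over 1 log2 unit above their own median over the arrays, and no other array had more than 3. Among them were 2 of the 3 Rps21 probes and 1 probe each of Rpl7a, Rps3a and Rps27a. For Rps21 A_52_P740562 the ratio on wild type 1 was 2.28 against a median of 0.33, at a raw sample signal of 422747 and a reference of 68153 units. The steps of 0.5 and 1 used for such counts were chosen after the values were seen.

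With p27 absent, no ribosomal protein probe passed the test against wild type (limma, adjusted p under 0.05), and neither did any other probe: 0 of 118 members and 0 of 27669 probes, or 0%. At an unadjusted p under 0.05 there were 3 members (2.54%), against 5.84% of all probes. The differences were above 0 for 72 of 118 members (61%; all probes 49.7%), with a median of 0.05; the sign of that median turned, to -0.00425, with the authors' value table. Members saturated on no array gave 37 of 71 above 0 (median 0.02), and those saturated on 1 or more arrays 35 of 47 (median 0.09). This split was not tested. For the large subunit 44 of 67 probes were above 0 (median 0.09), and for the small subunit 28 of 51 (median 0.02). The 317 equally bright other probes gave 148 of 313 above 0, with a median of -0.01. The smallest adjusted p of a member was 0.797.

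Rpl26, whose product binds p53 mRNA in human cells, had the smallest p among the members that were higher without p27. Its ratio was 0.59, 1.03 and 0.82 in wild type, with the spot of wild type 2 left out as an outlier, and 1.28, 1.28, 1.43 and 1.04 in p27 knock-out. All 4 p27 knock-out arrays stood above all wild type arrays (limma adjusted p = 0.797). The probe was saturated on all 4 p27 knock-out arrays and 2 of the 4 wild type arrays, so no fold is given. The fitted difference in the reference channel, where it was not saturated, was -0.32 (95% interval -0.61 to -0.02), although the reference was the same pool.

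Groups that do not overlap were found for 7 members higher in p27 knock-out, against 1.07% of all probes, and for 2 lower, against 1.42%. The higher ones included Rpl26 and Rpl5, with the p27 knock-out saturated on every array, and Rps15a A_52_P577019, Rps18 A_51_P287677 and Rpl24 A_51_P458575. Several rested on few values: Rpl24 had 1 usable p27 knock-out array, and Rps18 had 3. Rpl5, which with Rpl11 and 5S RNA forms the particle that can bind Mdm2, had ratios of 0.66, 1.17, 0.90 and 1.19 in wild type and 1.24, 1.27, 1.49 and 1.34 in p27 knock-out. All 15 arrays were at the ceiling for it, so it has no fold. The lower ones were Rps7 A_51_P127545, with 2 usable wild type arrays, and Rps4x A_51_P267995, with 1 wild type and 2 p27 knock-out arrays. Outlier flags removed 3.76 to 9.02% of member spots on wild type arrays and 1.5 to 7.52% on p27 knock-out arrays. Of all spots they removed 0.463 to 0.862% and 0.233 to 0.77%. On stathmin knock-out arrays they removed 0 to 3.01% of member spots, and on double knock-out arrays 0 to 6.02%. Groups with fewer values are less likely to overlap. The shares of all probes are therefore not matched to the members, here and in the comparisons below.

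Rpl14, a large-subunit protein, had the smallest p of the members in this comparison, at 0.0287. Its ratio was 0.38, -0.39, 0.11 and -0.02 in wild type and -0.30, -0.76, -0.91 and -0.10 in p27 knock-out. The groups overlapped, with 2 of 4 p27 knock-out arrays below all wild type arrays; the difference was -0.54 (95% interval -1.01 to -0.07, limma adjusted p = 0.797). In the stathmin knock-out it was -0.11, -0.86, -0.22 and -0.43, and in the double knock-out -0.31, -0.20 and -0.03.

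Without stathmin, again no member passed (0 of 119), while 2 probes of 27677 did (0.00723%): Stmn1 itself and the Rpl11 probe A_51_P394524. The members with an unadjusted p under 0.05 numbered 2 (1.68%), against 4.84% of all probes, and the smallest adjusted p was 0.916. The differences were above 0 for 42 of 119 (35.3%; all probes 50.3%), with a median of -0.06 that turned to 0.02 without stathmin knock-out 4. Large and small subunit gave the same median of -0.06, with 26 of 68 and 16 of 51 above 0. The equally bright other probes gave 120 of 315 above 0 and a median of -0.08.

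The Rpl11 probe that was left out of the set was read beside them. Its ratio was lower in stathmin knock-out by 1.68 on the log2 scale (SE 0.20, limma adjusted p = 0.0108), and its reference channel was higher by 1.19 (adjusted p = 0.0133) while its sample channel differed by -0.49 (adjusted p = 0.968). The other Rpl11 probe, A_52_P566208, differed by 0.51 (SE 0.47, limma adjusted p = 0.919). No member had a ratio difference below -0.81 in this comparison, and no member passed in either channel: 0 of 119 in the sample channel, where 0.00361% of all probes passed, and 0 of 119 in the reference channel, where 0.00361% passed. Reference differences of the members ran from -0.27 to 0.46.

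**Figure D3:**
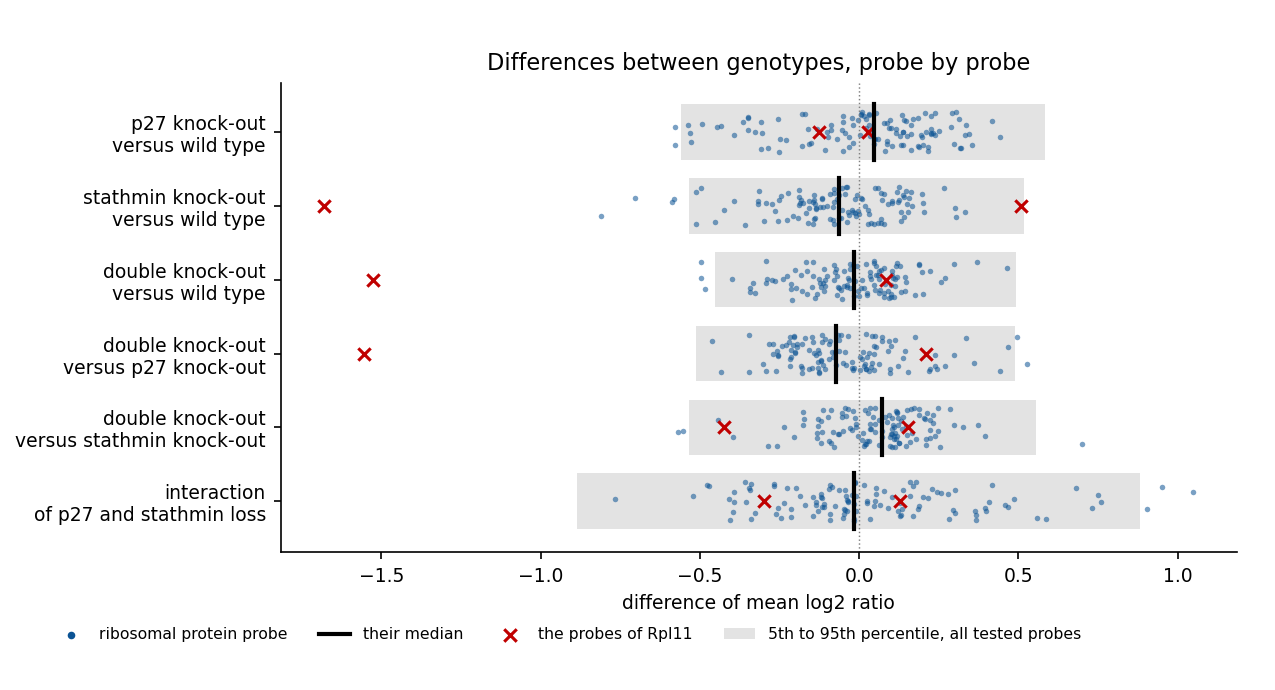
The difference of mean log2 ratio of each tested member probe (points) in the 5 comparisons of 2 genotypes and the interaction, with the member median (bar), the 2 probes of Rpl11 (crosses) and the 5th to 95th percentile of all tested probes (grey band). Member medians lie between -0.07 and 0.07, and the Rpl11 probe A_51_P394524 stands apart at -1.68, -1.53 and -1.55 in the comparisons of a stathmin-lacking with a stathmin-carrying genotype.

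Rps24, a small-subunit protein needed to process the precursor of 18S ribosomal RNA, had the smallest p of the members in this comparison, through its dim probe A_52_P537084 (raw sample signal 857 to 2028 units). The ratio was 0.26, 0.19, 0.50 and 0.22 in wild type and -0.34, -0.11, -0.15 and -0.56 in stathmin knock-out. It was -0.13, -0.12, -0.17 and 0.21 in p27 knock-out and 0.70, 0.23 and 0.31 in double knock-out. All 4 stathmin knock-out arrays lay below all wild type and all double knock-out arrays, 3 of 4 p27 knock-out arrays lay below all wild type arrays, and the double knock-out overlapped wild type.

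For this Rps24 probe the difference of stathmin knock-out from wild type was -0.58 (95% interval -0.90 to -0.26), with an unadjusted p of 0.00157 and a limma adjusted p of 0.916. Within the 4 slides it was -0.60, -0.30, -0.64 and -0.78. In the sample channel it was -0.54 (95% interval -0.97 to -0.10) and in the reference channel 0.05 (-0.19 to 0.28). The probes of the gene did not move together. The bright probe A_51_P312936 had ratios of 1.37, 1.28 and 1.10 in wild type and 1.76, 1.19, 1.41 and 1.14 in stathmin knock-out, which overlapped. The dim probe A_52_P100002 spread over -0.71, -0.13, 0.57 and 0.80 in wild type alone. Only the bright probe carries a RefSeq mRNA accession, and which transcript form the other 2 read is not given in the sources used here.

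Rpl7a, a large-subunit protein of a family that binds kinked RNA, rested on a wild type array. The ratio of probe A_52_P548790 was 1.66, 0.01, 0.67 and 0.01 in wild type and 0.21, -0.09, -0.35 and -0.24 in stathmin knock-out. Wild type 1 stood far above the rest; the difference was -0.70 (95% interval -1.35 to -0.06, limma adjusted p = 0.916) and -0.34 without that array. The other 2 Rpl7a probes had ratios of -0.37 to 0.39 and 0.49 to 0.97 over these 2 genotypes.

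Rps7, a small-subunit protein that binds MDM2 in human cells, was read at 1.93 and 1.84 in wild type, where 2 spots were outliers, and at 1.78, 1.44, 1.44 and 1.06 in stathmin knock-out. The groups did not overlap and the difference was -0.45 (95% interval -0.91 to 0.01, limma adjusted p = 0.916). Rpl15, a large-subunit protein mutated in some families with Diamond-Blackfan anaemia, was at 0.94, 1.29, 1.08 and 1.15 in wild type and at 1.17, 0.68, 0.82 and 0.53 in stathmin knock-out. These overlapped, at -0.32 (-0.65 to 0.02). Groups that do not overlap were found for 1 member higher in stathmin knock-out, Rpl3 (1.42% of all probes), with a single usable wild type array, and for 3 lower (1.78%), Rps24, Rps7 and Rpl7a A_52_P436206.

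With both genes absent, no member passed against wild type (0 of 119, against 1 of 27677 probes or 0.00361%, Stmn1), and none had an unadjusted p under 0.05, against 2.26% of all probes. The median difference was -0.02, with 55 of 119 above 0 (46.2%; all probes 48.8%); it ranged from -0.10 to 0.05 as single arrays were left out. Groups that do not overlap numbered 2 higher (3.05% of all probes) and 3 lower (3.53%). Rps20 A_52_P142346 had the smallest p of the members, at 0.0836. This small-subunit protein's probe read 0.23, 0.02, 0.21 and 0.30 in wild type and -0.37, -0.29 and -0.26 in double knock-out, with all 3 arrays below, at -0.50 (95% interval -1.07 to 0.08, limma adjusted p = 1). The bright Rps20 probe A_52_P5210 was saturated on 12 arrays, including every double knock-out array, so no fold is given for it.

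The other non-overlapping members of that comparison were Rps6 A_52_P531325 and Rps7 (lower) and Rpl35a A_51_P509107 and Rpl36a A_52_P197926 (higher, each on 2 double knock-out arrays). Rps6 is the substrate of the S6 kinases downstream of mTOR. Its dim probe read -0.53, -0.10, 0.34 and -0.09 in wild type and -0.53, -0.59 and -0.64 in double knock-out, all 3 at the lower edge. The bright Rps6 probe A_51_P344734, with 3 and 2 usable arrays, differed by 0.10 (95% interval -0.59 to 0.79).

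The double knock-out was then set against each single knock-out. Against p27 knock-out, 0 of 119 members passed (0.00361% of all probes), 1 had an unadjusted p under 0.05 (0.84%, all probes 2.89%), 47 were above 0 (all probes 50.2%) and the median was -0.07; without double knock-out 3 it was 0.0034. Members saturated on no array gave 34 of 71 above 0 (median -0.02), and those saturated on 1 or more arrays 13 of 48 (median -0.12). The groups of Rps24 A_52_P537084 did not overlap, with double knock-out higher (1.63% of all probes), nor did those of Rpl32, lower (1.67%). Against stathmin knock-out, 0 of 120 passed (0% of all probes), 2 had an unadjusted p under 0.05 (1.67%, all probes 3.55%), 80 were above 0 (all probes 50.2%) and the median was 0.07, or -0.02 without stathmin knock-out 4. Here 198 of the 317 equally bright other probes were above 0, with a median of 0.09. Rps24 A_52_P537084 differed by 0.70 (95% interval 0.36 to 1.04, limma adjusted p = 1), with 3 of 3 arrays above; it and Rpl35a A_51_P509107 were the 2 members higher without overlap (2.26% of all probes), and no member was lower without overlap (2.68%).

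Rpl22, a large-subunit protein that mice can lack with few defects outside T cells, stood at the other end of that comparison. Its probe A_52_P391718 read 0.02, -0.09, -0.57 and -0.45 in wild type and -0.23, 0.44, -0.43 and -0.07 in p27 knock-out. It read -0.0026, 0.31, -0.10 and 0.03 in stathmin knock-out and -0.82, -0.07 and -0.64 in double knock-out. The double knock-out differed from stathmin knock-out by -0.57 (SE 0.23, limma adjusted p = 1), with 2 of 3 arrays below. The brighter probe A_51_P387878 of the same gene read 0.14, 0.79 and 0.89 in double knock-out and 0.92, 0.34, 0.57 and 0.34 in stathmin knock-out, which overlapped.

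The interaction, the difference between the effect of stathmin loss with and without p27, passed for no member (0 of 118) and no probe (0%). An unadjusted p under 0.05 was found for 4 members (3.39%), against 7.3% of all probes: Rps24 A_52_P537084, Rpl22 A_52_P391718, Rpl14 and Rpl7a A_52_P548790. The largest was Rps24, at 1.05 (95% interval 0.58 to 1.52, unadjusted p = 0.000295, limma adjusted p = 0.682). Rpl22 was at -0.77, Rpl14 at 0.76 and Rpl7a at 0.95, or 0.59 without wild type 1. The member median was -0.02, with 54 of 118 above 0 (all probes 49.8%).

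**Figure D4:**
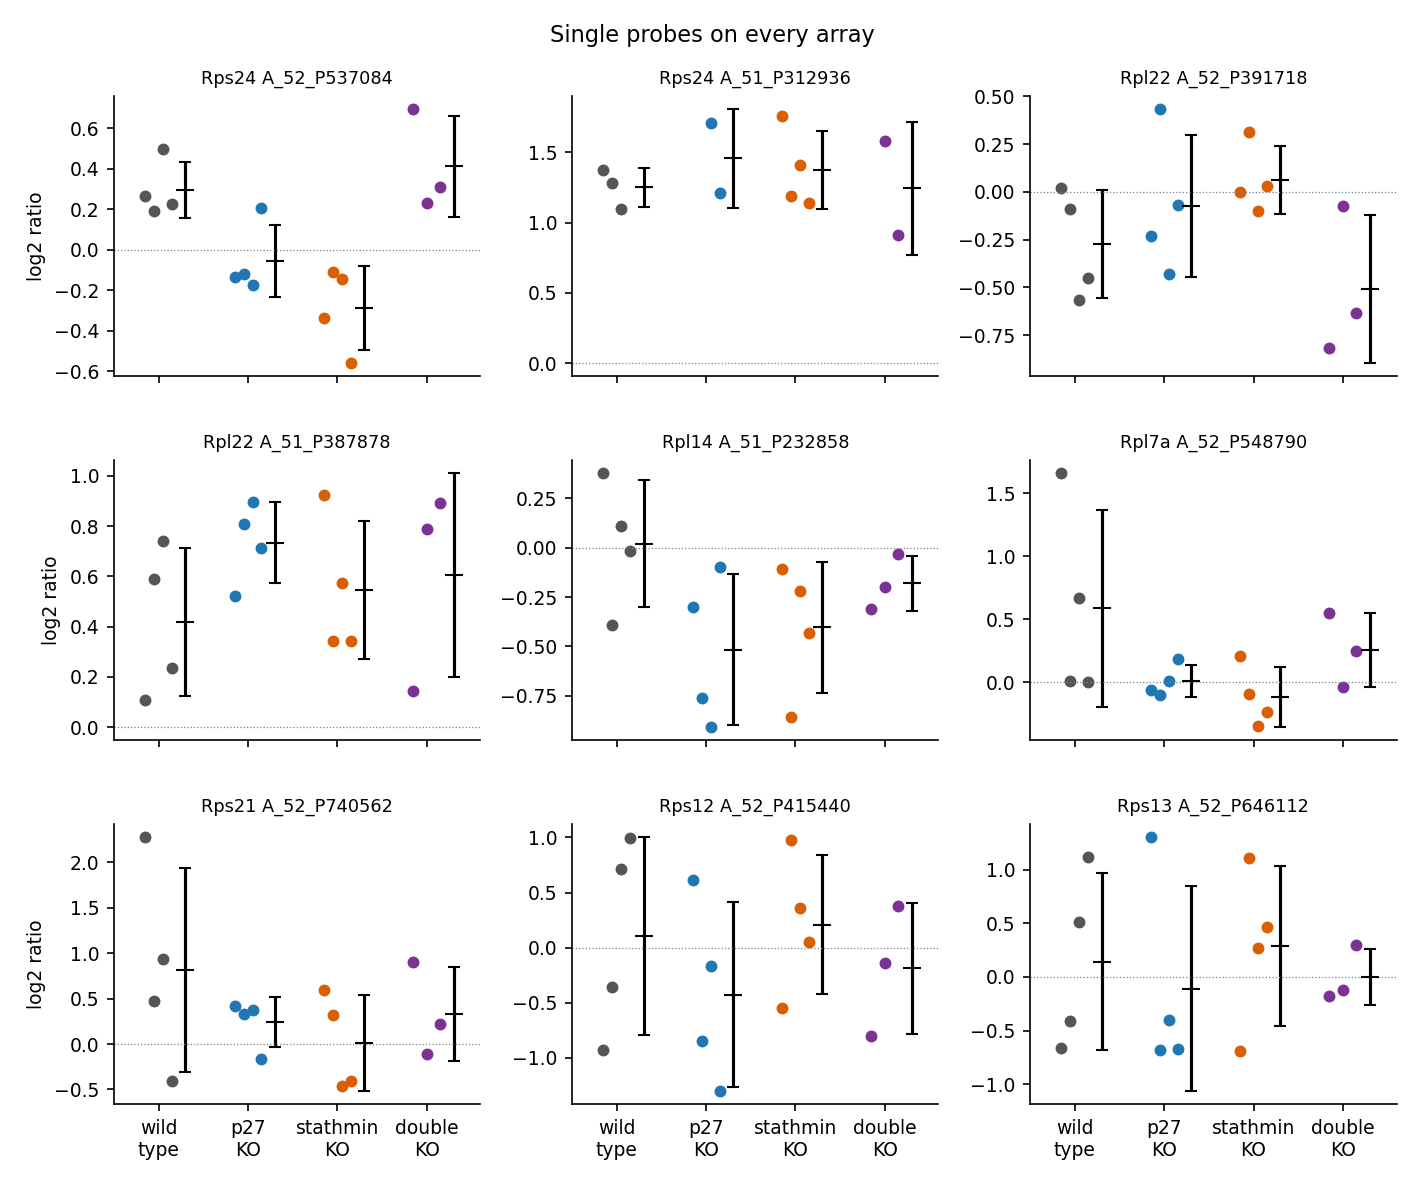
Log2 ratios of 9 probes on every array (points), with mean and SD of each genotype beside them; KO stands for knock-out, without the spots that the scanner software flagged. Rps24 A_52_P537084 runs from -0.56 to -0.11 in stathmin knock-out and from 0.23 to 0.70 in double knock-out, while the bright Rps24 probe A_51_P312936 overlaps between all genotypes.

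The median half-width of the 95% interval of a member was 0.43 for each single knock-out against wild type, 0.46 for the double knock-out, 0.45 for both other comparisons and 0.61 for the interaction. The interval lay wholly within 1 log2 unit of 0 for 107 of 118, 108 of 119 and 106 of 119 members against wild type. It lay within 0.5 log2 units for 35, 41 and 40 of them. These counts include saturated probes, whose sample signal cannot show a rise. Of the members saturated on no array, the interval lay within 1 log2 unit for 62 of 71, 63 of 72 and 61 of 72, and within 0.5 for 14, 18 and 20.

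By role, the stalk proteins recruit translation factors. Rplp0 read -0.66, -0.12, -0.45 and -0.33 in wild type, -0.23, -0.16, -0.14 and -0.02 in p27 knock-out, 0.40, -0.23, -0.57 and -0.50 in stathmin knock-out and -0.46, 0.13 and -0.40 in double knock-out. These overlapped, with differences from wild type of 0.25, 0.16 and 0.14 that did not pass. Rplp1 and Rplp2 were saturated throughout, at mean ratios of 1.04 to 1.47. Rpl3 and Rpl10 lie near the peptidyl transferase centre, where peptide bonds form. Rpl10 A_51_P495895 had means of 0.63 ± 0.23 (SD, n = 4), 0.78 ± 0.23 (n = 4), 0.48 ± 0.28 (n = 4) and 0.52 ± 0.23 (n = 3) in wild type, p27, stathmin and double knock-out, and its 3 intervals against wild type lay between -0.52 and 0.53. Rpl10a differed from wild type by 0.10, -0.07 and -0.12, and Rpl39, a small protein of the exit tunnel, by 0.29, 0.03 and 0.15.

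Rpl38, needed in mouse embryos to translate certain Hox mRNAs, had means of 1.30 ± 0.29, 1.20 ± 0.20, 1.12 ± 0.21 and 1.27 ± 0.37 (SD, n = 4, 4, 4 and 3) and was saturated on 5 arrays. Rpl23, which like Rpl5 can bind Mdm2, differed from wild type by -0.07, 0.07 and -0.05 through its unsaturated probe A_51_P108190. The small-subunit proteins Rps19 and Rps14, whose partial loss is linked to anaemia in people, were unsaturated: Rps19 A_51_P337290 differed by 0.01, -0.18 and -0.21 and Rps14 by 0.24, 0.13 and -0.11. Rps3, which also acts in DNA repair, differed by -0.23, -0.31 and -0.07 through A_51_P318642. Rps27a, made as a fusion with ubiquitin, differed by -0.49, -0.59 and -0.40 with 2.08 on wild type 1; it had 3, 2, 4 and 2 usable arrays in wild type, p27, stathmin and double knock-out. None of these passed the test.

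Among the 5 probes with the smallest residual SD over the arrays were Rps4x A_52_P780667 (0.128), Rps23 (0.132), Rpl12 (0.145) and Rpl35a A_51_P509107 (0.148). Of these, Rps23 was saturated on all 15 arrays, and Rpl12 on wild type 1, wild type 4, p27 knock-out 4 and double knock-out 3. Rps4x A_52_P780667 was the dimmest tested member, with a median raw sample signal of 218 units. The median residual SD over members was 0.272, against 0.323 for all other tested probes and 0.348 for the equally bright ones. For the 72 members saturated on no array it was 0.294, and for the 48 saturated on 1 or more arrays 0.244. These differences were not tested. At the other end, Rps13 A_52_P646112 (0.772), Rps12 A_52_P415440 (0.765), Rps24 A_52_P100002 (0.753) and Rpl13 A_52_P103513 (0.678) were dim and carry no RefSeq mRNA accession, while Rps21 A_52_P740562 (0.699) was bright.

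These 4 dim probes were high and low on the same arrays, and their genotypes overlapped. Rps12 A_52_P415440 read -0.93, -0.36, 0.71 and 0.99 in wild type and 0.62, -0.85, -0.16 and -1.30 in p27 knock-out. It read -0.54, 0.98, 0.36 and 0.05 in stathmin knock-out and -0.80, -0.14 and 0.38 in double knock-out. Rps13 A_52_P646112 followed, at -0.66, -0.41, 0.51 and 1.12 in wild type and 1.31, -0.68, -0.40 and -0.67 in p27 knock-out. Wild type 4 and stathmin knock-out 2 were high in both, and wild type 1 and p27 knock-out 2 low. Across the 15 arrays the 6 pairs of these probes had Pearson r of 0.68 to 0.92, given as a description, and r with Rps21 A_52_P740562 of -0.498 to -0.334. The residual SD was 0.192 for the other Rps13 probe, A_51_P327469, saturated on 2 arrays, 0.279 for the other Rps12 probe, A_51_P349435, saturated on 5, and 0.201 and 0.228 for the other Rpl13 probes.

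Probes differed in brightness. Of the 104 tested probes with a RefSeq mRNA accession the median raw sample signal was 444338 units and 5 had medians under 30000; of the 16 others the median was 6872 units and 10 were under 30000. That limit was chosen after the values were seen. The 15 probes under it, of 13 genes, gave 2 of 15 above 0 in p27 knock-out against wild type (median -0.28), while the 103 brighter ones gave 70 above 0 (median 0.09). Against stathmin knock-out, the double knock-out gave 6 of 15 (median -0.10) and 74 of 105 (median 0.09). Against p27 knock-out it gave 11 of 15 (0.10) and 36 of 104 (-0.09). Against wild type, stathmin knock-out gave 7 of 15 (-0.0070) and 35 of 104 (-0.07), and double knock-out 6 of 15 (-0.07) and 49 of 104 (-0.01). These differences between dim and bright probes were not tested. Processed pseudogenes close in sequence exist for many ribosomal protein genes, so what a probe reads is uncertain for the family as a whole, and probe sequences were not used here.

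Probes of 1 gene often disagreed in sign. Of 36 genes with more than 1 tested probe, the probes pointed opposite ways in 16 for p27 knock-out, 17 for stathmin knock-out and 20 for double knock-out, each against wild type. They did so in 13 for double against p27 knock-out, 12 for double against stathmin knock-out and 14 for the interaction. The share among other genes with more than 1 probe was not computed. In stathmin knock-out the 5 widest gaps between probes were those of Rps24 (0.71), Rps21 (0.67), Rps3a (0.60), Rpl7a (0.56) and Rpl13 (0.56).

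**Figure D5:**
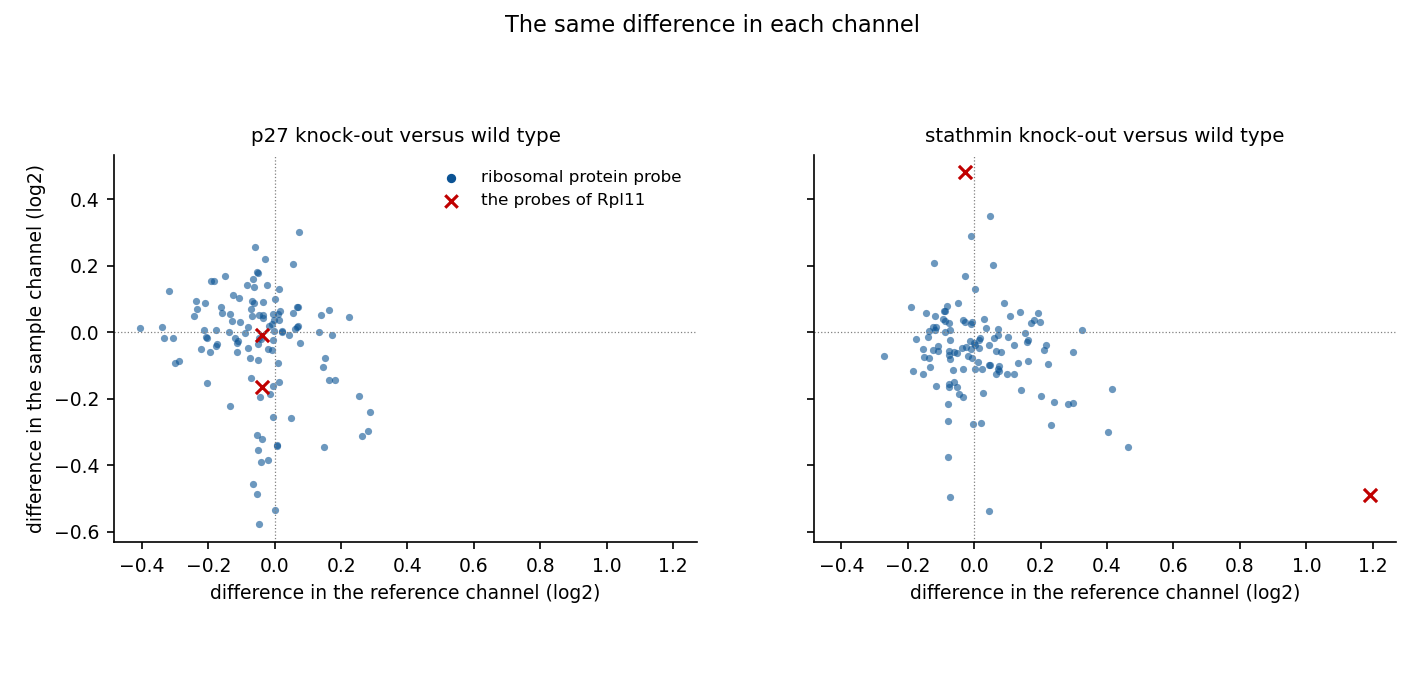
For p27 and stathmin knock-out against wild type, the log2 difference of each tested member probe in the reference channel (horizontal axis) and in the sample channel (vertical axis), with the 2 probes of Rpl11 as crosses. In stathmin knock-out the members stay between -0.27 and 0.46 in the reference channel, and the Rpl11 probe A_51_P394524 lies at 1.19.

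Taken by channel, the members again gave no call. Against wild type, the sample channel gave 0 of 118 members for p27 knock-out, 0 of 119 for stathmin knock-out and 0 of 119 for double knock-out, where 0, 0.00361 and 0.00361% of all probes passed; the member medians were 0.00064, -0.05 and -0.04. Unadjusted p under 0.05 was reached there by 2, 3 and 0 members (1.69, 2.52 and 0%), against 4.77, 4.19 and 2.24% of all probes. In the reference channel 6 of 118, 6 of 119 and 6 of 119 members had an unadjusted p under 0.05 (5.08, 5.04 and 5.04%), against 1.1, 3.28 and 4.01% of all probes, although the pool was the same on every array. None of these passed the adjusted threshold. The median absolute reference difference of a member was 0.07, 0.08 and 0.09, above the 0.04, 0.05 and 0.06 of all probes. These comparisons were not matched for brightness: the median of the mean log2 signal was 17.8 for members and 10.8 for other tested probes.

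Some members lie on the chromosomes of the deleted genes. On chromosome 4, which carries Stmn1, lie members that include Rpl22, Rps20 and Rps6, and on chromosome 6, which carries Cdkn1b, lies Rpl32. The 7 probes of these genes differed from wild type by -0.43 to 0.32 in p27 knock-out, -0.29 to 0.33 in stathmin knock-out and -0.50 to 0.19 in double knock-out, none of which passed. Among them, Rps20 A_52_P5210 was at the ceiling on every stathmin and double knock-out array, where a rise could not show. Rpl32, a large-subunit protein, read 0.43, 0.99, 0.76 and 0.73 in wild type, 0.84, 0.80, 0.80 and 0.93 in p27 knock-out, 0.73, 0.62, 0.50 and 0.39 in stathmin knock-out and 0.52, 0.74 and 0.72 in double knock-out. The p27 knock-out arrays fell within the wild type range, and the double knock-out arrays lay below all p27 knock-out arrays.

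Other genes of the pathway give the surroundings of these values. No probe passed in any of the 6 comparisons for the mitochondrial ribosome, translation initiation, ribosome biogenesis, elongation and other TOP mRNAs, or regulators. In p27 knock-out against wild type 39 of 118 probes of mitochondrial ribosomal proteins were above 0 (median -0.04), 5 of 47 of translation initiation factors (-0.24), 6 of 57 of ribosome biogenesis and RNA polymerase I (-0.32) and 9 of 25 of elongation and other TOP mRNAs (-0.15). The members were at 72 of 118 and 0.05, or 37 of 71 and 0.02 among those saturated on no array. Abundant genes outside the ribosome were at 30 of 49 and 0.09. In stathmin knock-out the same lists gave 32 of 118 (-0.07), 9 of 47 (-0.15), 8 of 58 (-0.19) and 6 of 25 (-0.11), against 42 of 119 and -0.06 for the members. There the abundant genes outside the ribosome were at 27 of 49 and 0.01. These lists were not tested against each other.

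Among the regulators, Mycn, a Myc-family factor that drives ribosome production, had the largest interaction, 4.02 (SE 0.89, limma adjusted p = 0.682). In biogenesis the smallest p in p27 knock-out was that of Ddx21, a nucleolar helicase, at -0.62 (SE 0.18, limma adjusted p = 0.797), and in elongation that of Eef1d, an exchange factor for eEF1A, at -0.52 (SE 0.17, adjusted p = 0.797). Rpsa, a small-subunit protein that the name pattern misses, differed in p27 knock-out by -0.63 (SE 0.20, limma adjusted p = 0.797) through A_52_P372165. Of 12 probes of dividing-cell markers, none lay above 0 in stathmin knock-out (median -0.87) or in p27 knock-out (-0.24) and 2 in double knock-out (-0.17), each against wild type, and none passed.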

How the data were processed

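Two-colour arrays were read for 15 samples, each amplified and labelled by the amino-allyl method per the labels. The intensity values are mean spot signals and local median backgrounds that Feature Extraction 9.1.3.1 wrote with its background left in, per the file headers. The deposited log10 ratio is red over green after the scanner software's dye normalisation, per the file headers. The value table deposited by the authors was read as log2 of sample over reference, its normalisation not being given in the sources used here, from its relation to the scanner ratio (Pearson r 0.821 to 0.936 over probes, slope 0.961 to 1 per array, column medians 0.0039 to 0.0522). The scanner log10 ratio and that table served as alternatives.

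The signals were analysed with limma 3.58.1 (R 4.3.3), using normexp background correction (offset 50) and loess within each array. Spots with outlier flags were left out and spots of a probe averaged. Testing required a sample signal that the scanner software marked well above background in 3 or more arrays of any genotype. A fit of 4 genotype means over all 15 arrays (11 residual degrees of freedom) gave 6 comparisons, with Benjamini-Hochberg adjustment over all tested probes and a threshold of 0.05. For single channels, Aquantile normalisation followed. The code was tested on simulated data.

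The members, gene lists and tests were chosen with earlier results of these data known. The probes named were those with the 5 smallest p in each comparison, the 5 largest and 5 smallest residual SDs, saturated probes, the 5 widest gaps between probes in stathmin knock-out, members on chromosomes 4 and 6, and genes with a known role; other probes of the same genes are named beside them. Results of some genes that this rule covers are not reported here. Of the 124 member probes, 104 were matched to RefSeq tables by accession and 20 by symbol. Alternatives covered background, normalisation, saturated and flagged spots, filters, probe choice, channel, blocks and leaving out each array.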

Additional observations from a re-analysis of the deposited data

Results flagged for a closer look

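In 68 groups of 4 arrays, 4 held a value far from the other arrays of its genotype; chance gives about 1 in 20 groups. The ratio of Rps24 A_52_P537084 on p27 knock-out 4 was 0.21, against -0.17 to -0.12 on the other three. The median raw sample signal of the members on p27 knock-out 4 was 520266 units, against 397122 to 404653. The median ratio of the large-subunit probes on p27 knock-out 3 was 0.52, against 0.69 to 0.72. The ratio of Rpl10 A_52_P171216 on stathmin knock-out 1 was 0.67, against 0.25 to 0.31.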

How the results depend on the processing

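No member passed the adjusted threshold in any comparison. The lowest limma adjusted p was 0.145, in the reference channel for stathmin knock-out against wild type. For the ratio the lowest limma adjusted p was 0.191, in the interaction. The ratio was examined under 36 settings (35 for the interaction) and each single channel under 23. The member medians, 491 values in all, moved by less than the pooled SD of the array medians within genotypes, which was 0.17 for the ratio. That limit is wide beside ratio medians of -0.07 to 0.07, and the median ratio changed sign under some settings in every comparison. It ranged from -0.00425 to 0.12 in p27 knock-out, from -0.16 to 0.02 in stathmin knock-out and from -0.10 to 0.05 in double knock-out, each against wild type. It ranged from -0.12 to 0.0034 for double against p27 knock-out, from -0.02 to 0.19 for double against stathmin knock-out and from -0.11 to 0.08 for the interaction. Leaving out single arrays alone gave 0.0040 to 0.09, -0.16 to 0.02 and -0.10 to 0.05 in the 3 comparisons with wild type.

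Of 900 values for 26 named probe results, 15 had the opposite sign. With the brightest probe of each gene, which exchanges the probe, Rps24 was at 0.21 in p27 knock-out and 0.12 in stathmin knock-out against wild type, -0.22 in double against p27 knock-out, -0.13 in double against stathmin knock-out and -0.34 in the interaction. There Rps15a was at -0.18 in double against p27 knock-out and Rpl22 at 0.0614 in double against stathmin knock-out. With the reference channel alone, sign turned, double against p27 knock-out gave 0.0108 for Rpl22, -0.0173 for Rpl31 and -0.00317 for Rps15a. Double knock-out against wild type gave 0.0501 for Rpl21, -0.0172 for Rps15a and 0.0305 for Rps20. With the sample channel alone, Rpl35a was at -0.0073 in double knock-out and Rpl15 at 0.0075 in stathmin knock-out, each against wild type. Apart from the exchange of probes, the cause was not tested.

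The replicate numbers were not taken to pair the samples: of 21 same-numbered pairs, 12 had residual correlations over 0.1 (range -0.259 to 0.415), and 5 of 15 arrays correlated best with their own number. With the replicate block the member medians were 0.06, -0.05 and -0.04 against wild type, -0.12 and 0.02 for the double against p27 and stathmin knock-out and -0.04 for the interaction, and no call changed.

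Aquantile leaves ratios unchanged by construction, and the interaction has no value when only the genotypes compared enter the fit. The alternative with members saturated on no array was chosen after seeing the data. Saturation and the 3 or 4 arrays a genotype limit the precision.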
